A study of Danio rerio with 6 samples.

Results

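The cxcr3 receptor genes of zebrafish were described in macrophages sorted from cxcr3.2 mutant and wild type larvae. They were taken by gene ID, as the rows for cxcr3.2 (ENSDARG00000041041), cxcr3.3 (ENSDARG00000070669) and a paralog named CXCR3 with no suffix (ENSDARG00000007358), which made 3 of the 31962 genes in the files. Polyadenylated RNA had been sequenced from 3 libraries of cxcr3.2-/- larvae and 3 of cxcr3.2+/+ larvae, called mutant and wild type here. Both genotypes carried the mpeg1:mCherryF transgene, in which the promoter of the macrophage gene mpeg1 drives a red fluorescent protein, and the red cells were sorted without any treatment or infection named in the labels. Each library stood for its own group of 150 to 200 larvae, whose age the labels give both as 6 and as 5 days after fertilisation. The labels name no mutant allele, and they do not say whether both genotypes came from the same parents.

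CXCR3 is a chemokine receptor of the cell membrane that couples to inhibitory G proteins and guides leukocytes towards CXC chemokines made at sites of infection or injury. In mammals it is best known on T cells and natural killer cells, where it reads interferon-induced ligands. In zebrafish, Cxcr3.2 is known to steer macrophages towards ligands of the Cxcl11 group, and Cxcr3.3 has been described as an atypical receptor that can take up ligand without signalling in the usual way. The comparison of the genotypes asks how transcripts of the mutated gene and of its paralogs stood in the mutant.

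Transcripts of cxcr3.2 were retained in the mutant at about the wild type level, while both paralogs were lower on average. The paralog differences did not pass the test across all genes: by edgeR's quasi-likelihood test, 0 of the 3 receptors had an adjusted p under 0.05, against 1.19% of the 16499 genes tested (51 higher, or 0.309%, and 146 lower, or 0.885%). At an unadjusted p under 0.05 there were 2 of the 3, cxcr3.3 and CXCR3, against 14.2% of all tested genes. DESeq2 called these 2 as lower, as it did 4.64% of the 10084 genes to which it gave an adjusted p. Levels below are raw counts scaled to the library total (raw CPM), and fold changes are mutant over wild type from the edgeR fit, which also scales libraries by TMM (trimmed mean of M values). Without that scaling the median log2 fold change of all tested genes moved from −0.03 to 0.24, and the calls became 217 higher and 117 lower. With totals that left out the heat shock genes, 78 were higher and 136 lower.

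The mutated gene cxcr3.2 measured 186, 128 and 162 raw CPM in wild type replicates 1 to 3, from 1571, 1075 and 1009 reads. In mutant replicates 1 to 3 it measured 185, 219 and 169.6 raw CPM, from 1674, 1487 and 1629 reads. The genotypes overlapped, with wild type replicate 2 the lowest and mutant replicate 2 the highest of the 6 libraries, and wild type replicate 1 and mutant replicate 1 stood level. Means were 159 ± 29 raw CPM in wild type and 191 ± 25.2 raw CPM in mutant (SD, n = 3 each). The fitted log2 fold change was 0.01 (SE 0.16, 95% interval −0.35 to 0.38), so that a change of the transcript by 2-fold in either direction lay outside the interval. The adjusted p of edgeR's test was 0.984, and the exact two-sided permutation test of log2 CPM gave p = 1 with TMM scaling and p = 0.3 on raw CPM, where 0.1 is the smallest p that 3 libraries against 3 can reach. Its sign depended on the setting, as given in the closing section. A count of reads per gene cannot show whether the transcripts carry the mutation, so it does not check the genotype labels.

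The atypical receptor gene cxcr3.3 measured 72.1, 48.1 and 36.7 raw CPM in wild type replicates 1 to 3, from 609, 404 and 229 reads. In mutant replicates 1 to 3 it measured 41.3, 34.9 and 29.7 raw CPM, from 373, 237 and 285 reads. On this scale the genotypes overlapped, since mutant replicate 1 was above wild type replicate 3, and wild type replicate 1 stood well above all others. With TMM scaling the groups came apart by a narrow gap, with 39.7 CPM in the lowest wild type library and 37.4 CPM in the highest mutant library. Such a separation with lower mutant values held for 10.4% of all tested genes. Means were 52.3 ± 18 raw CPM in wild type and 35.3 ± 5.84 raw CPM in mutant (SD, n = 3 each), and the fitted log2 fold change was −0.83 (SE 0.26, 95% interval −1.42 to −0.23, edgeR adjusted p = 0.195). DESeq2 called it (adjusted p = 0.0448), and over the 13 alternatives the adjusted p ran from 0.0448 to 0.434. The exact two-sided permutation test gave p = 0.1 with TMM scaling and p = 0.2 on raw CPM.

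The paralog named CXCR3 showed the widest gap. It measured 19.3, 12 and 11.22 raw CPM in wild type replicates 1 to 3, from 163, 101 and 70 reads. In the mutant it was counted 2, 16 and 45 times in replicates 1 to 3, which made 0.222, 2.36 and 4.68 raw CPM. Every wild type library was above every mutant library, also on raw CPM, where 5.45% of all tested genes were separated in this direction. The mutant libraries also differed among themselves: the 95% Poisson interval, which covers counting error only, ran from 0.0268 to 0.8 CPM in replicate 1, from 1.35 to 3.83 CPM in replicate 2 and from 3.42 to 6.27 CPM in replicate 3. The interval of replicate 1 lay below those of replicates 2 and 3, but amplified reads are not independent molecules, so these intervals can be too narrow. The SD was 92.2% of the mean in mutant against 31.3% in wild type.

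Means for CXCR3 were 14.2 ± 4.44 raw CPM in wild type and 2.42 ± 2.23 raw CPM in mutant (SD, n = 3 each). The fitted level was 6.93-fold lower in the mutant (log2 fold change −2.79, SE 0.73, 95% interval −4.45 to −1.13), and edgeR's adjusted p was 0.136. DESeq2 called it (adjusted p = 0.00308), and over the 13 alternatives the adjusted p ran from 0.00308 to 0.312. Of all tested genes, 0.752% had a fold change as low or lower. The exact two-sided permutation test gave p = 0.1, its smallest possible value. Without mutant replicate 3, the mutant library with the most CXCR3 reads, the log2 fold change was −3.74, and without mutant replicate 1 it was −2.24. How the authors assigned reads that match several paralogs is not given in the sources used here, so a transfer of reads among the 3 genes cannot be told apart from a change of one of them.

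**Figure D1:**
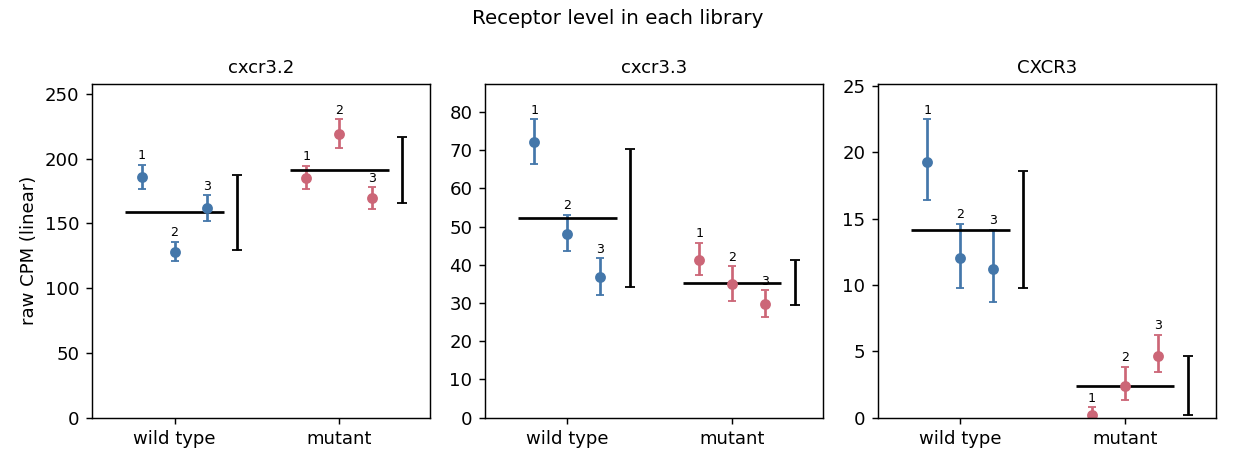
Raw CPM (linear axis, from 0) of each receptor by genotype. Points are libraries labelled by replicate number with 95% Poisson intervals, horizontal lines are means and the black bars beside them are 1 SD (n = 3). Mutant CXCR3 lies between 0.222 and 4.68 raw CPM, below all wild type libraries, while cxcr3.2 overlaps between the genotypes.

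The mean composition of the receptor counts differed between the genotypes in these libraries, and it does not depend on depth or scaling. Of the reads on the 3 genes (1308 to 2343 per library), cxcr3.2 held 67.1%, 68% and 77.1% in wild type replicates 1 to 3. In mutant replicates 1 to 3 it held 81.7%, 85.5% and 83.2%. Each mutant library was above each wild type library, and wild type replicate 3 came closest to the mutant, with a 95% Clopper-Pearson interval of 74.8% to 79.4% against 79.95% to 83.4% in mutant replicate 1. The means were 70.7% ± 5.56 and 83.4% ± 1.9 (SD, n = 3 each). As parts of one total, a higher share of cxcr3.2 is also a lower share of the paralogs together. These are shares of reads, not of transcripts, because no transcript lengths were used. No test was run on the shares. How often such shares separate the genotypes for other sets of genes was not computed.

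The share of CXCR3 was 6.96%, 6.39% and 5.35% in wild type replicates 1 to 3. In the mutant it was 0.0976% (95% interval 0.0118% to 0.352%), 0.92% and 2.3% in replicates 1 to 3. No interval of a wild type library met one of a mutant library. Like those of cxcr3.2 above, these intervals cover counting error only and leave out the spread between libraries of a genotype. The share of cxcr3.3 was 26%, 25.6% and 17.5% in wild type and 18.2%, 13.6% and 14.6% in mutant replicates 1 to 3. For this gene the genotypes overlapped, as mutant replicate 1 was above wild type replicate 3.

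**Figure D2:**
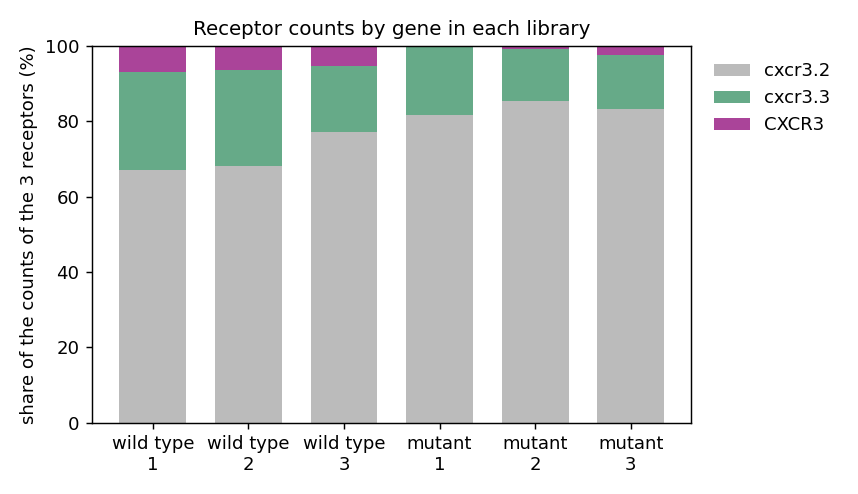
Share of the counts of the 3 receptors (%) held by each gene, one stacked bar per library. The CXCR3 part runs from 5.35% to 6.96% in wild type and from 0.0976% to 2.3% in mutant libraries, and the cxcr3.2 part is higher in every mutant library.

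Ratios between paired receptors within a library re-express the same counts as the shares, so they are not separate support. For every 100 cxcr3.2 reads there were 38.8, 37.6 and 22.7 cxcr3.3 reads in wild type replicates 1 to 3, against 22.3, 15.9 and 17.5 in those of the mutant. The gap between wild type replicate 3 and mutant replicate 1 was small. For the same 100 reads there were 10.4, 9.4 and 6.94 CXCR3 reads in wild type and 0.12, 1.08 and 2.76 in mutant replicates 1 to 3. The ratio of cxcr3.3 to cxcr3.2 was lower in the mutant by 0.80 on the log2 scale on average (a difference of −0.80, from −1.64 ± 0.43 to −2.44 ± 0.25), and that of CXCR3 to cxcr3.2 differed by −3.51 (from −3.50 ± 0.30 to −7.01 ± 2.16). Both ratios separated the genotypes, which 9.01% of all tested genes did in this direction when set against cxcr3.2.

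CXCR3 was lower against cxcr3.3 as well. For every 100 cxcr3.3 reads there were 26.8, 25 and 30.6 CXCR3 reads in wild type and 0.536, 6.75 and 15.8 in mutant replicates 1 to 3. The mean log2 ratio differed by −2.71 between the genotypes, and it had a narrow spread in wild type (SD 0.15) and a wide one in mutant libraries (SD 2.37). Of all tested genes, 1.35% were separated in this direction when set against cxcr3.3. By exact two-sided permutation each of the 3 ratios gave p = 0.1, the smallest possible value, and 0.1 again after adjustment over the 3. Without mutant replicate 1, the difference for CXCR3 was −2.33 against cxcr3.2 and −1.38 against cxcr3.3. Without mutant replicate 3, it was −4.44 and −3.67, respectively.

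Summed over the 3 genes, receptor counts measured 277, 188 and 209.6 raw CPM in wild type replicates 1 to 3, against 227, 256 and 204 raw CPM in those of the mutant. The genotypes overlapped and the means lay close, at 225 ± 46.4 and 229 ± 26.2 raw CPM. With TMM scaling the order of the means turned, to 246 ± 32.8 and 209.7 ± 27 CPM, again with overlap.

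**Figure D3:**
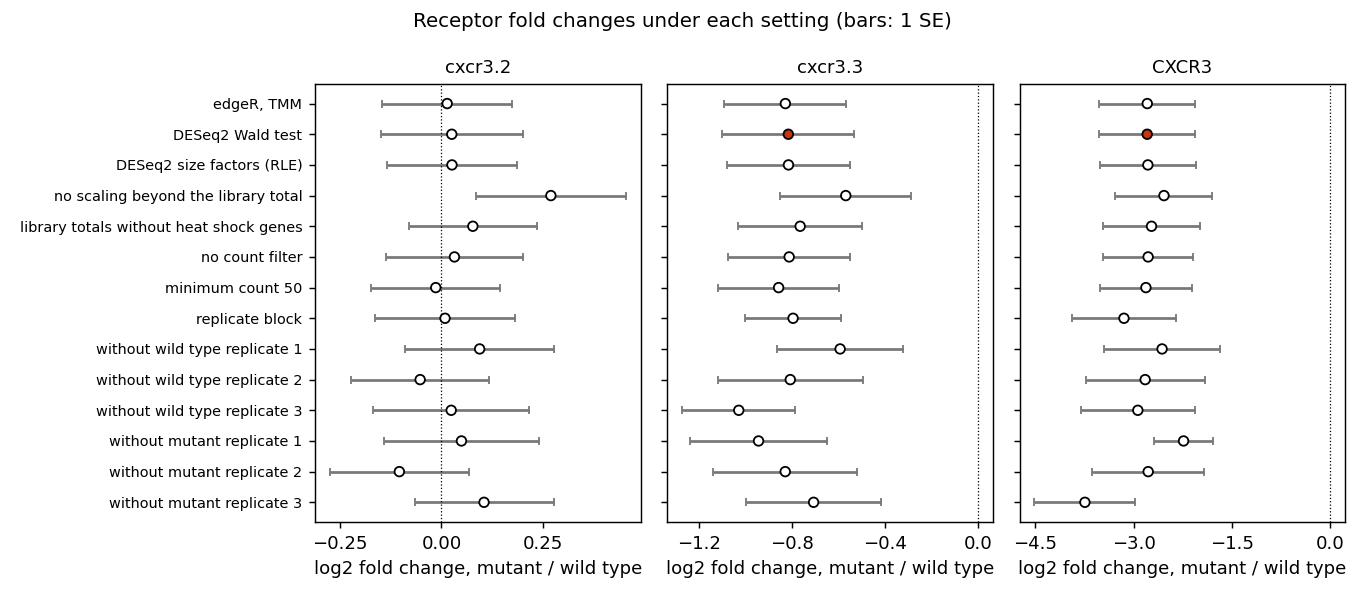
Log2 fold change, mutant over wild type, of each receptor under each setting (rows). Points are estimates with bars of 1 SE, and filled points have an adjusted p under 0.05. Estimates of cxcr3.3 and CXCR3 are below 0 in every row and filled with DESeq2 alone, while cxcr3.2 lies on both sides of 0, from −0.10 to 0.27.

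The sorted pools and their depth bear on these values. Library totals ran from 6239470 to 9607009 counts. Macrophage markers were present in all libraries: those listed summed to 4265 to 4694 raw CPM in wild type and 8492 to 9153 raw CPM in mutant, of which the lipid carrier gene apoeb alone held 2025 to 2364 and 5036 to 6115 raw CPM. By edgeR 2 of the 12 listed were called higher, apoeb (adjusted p = 0.00983) and SPI1 (0.0487), and 0 lower, against 0.309% and 0.885% of all tested genes. Without wild type replicate 3, or without mutant replicate 3, edgeR called 0. With a minimum count of 50, edgeR called 2 higher and 1 lower of 11 tested. DESeq2 called 3 higher and 1 lower of the 11 to which it gave an adjusted p, against 4.59% and 4.64% of the genes it judged. A positive sign was given by edgeR to 8 of the 12, against 47.9% of all tested genes. The 4 with a negative sign were the MPEG1 genes (log2 fold changes −1.26, −0.16 and −0.465) and csf1ra (−0.31). Neutrophils also carry chemokine receptors, and transcripts listed as their markers were present, which does not by itself show the cells. The 5 matched neutrophil markers summed to 328 to 581 raw CPM in wild type and 399 to 1440 raw CPM in mutant libraries. The lysozyme gene lyz measured 717 raw CPM in mutant replicate 2 against 34.8 to 214 in the other libraries. Lymphocyte markers were low beside those of macrophages. The 6 of T cells summed to 16.8 to 36.4 raw CPM in wild type and 13.7 to 45.5 raw CPM in mutant, mostly from rag1 and il7r. Among the 6, zap70 was at or below 0.801 raw CPM, and lck at or below 1.44 raw CPM except in mutant replicate 1, at 10.8. In every library the T cell sum was above the level of CXCR3 itself (11.22 to 19.3 raw CPM in wild type, 0.222 to 4.68 in mutant). The 5 markers of B cells summed to 1.76 to 4.02 and 0.222 to 3.33 raw CPM, with cd37 at 0 in every library. The epidermal list held 3800 to 4686 raw CPM in wild type and 4127 to 4232 raw CPM in mutant, of which the keratin gene krt4 made up 1108 to 1559 and 1310.0 to 1406. By edgeR all 6 epidermal genes had a negative sign (median log2 fold change −0.32), and 4 of them with library totals alone. EdgeR called 0 of them, and DESeq2 called 1 lower, against 4.64% of the genes it judged. Erythroid markers summed to 70.9 to 128 and 139 to 233 raw CPM, thrombocyte markers to 53.6 to 84.6 and 67 to 96.8, and neural markers to 117 to 170.2 and 159 to 179, for wild type and mutant respectively. The 3 erythroid genes all had a positive sign by edgeR, with 0 called. Muscle markers stood out in mutant replicate 2 alone, at 1022 raw CPM against 44.2 to 82 in the others. The part of other cells in the receptor values was not tested, and in such bulk RNA fewer cells of a type and less RNA per cell cannot be told apart.

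Heat shock genes also moved with the genotype. The 41 listed genes held 11.43%, 22.9% and 13.9% of counts in wild type replicates 1 to 3, against 3.49%, 3.46% and 3.86% in the mutant. By edgeR 19 of the 35 tested were called lower and 0 higher, against 0.885% and 0.309% of all tested genes. By sign, 30 were lower and 5 higher. With library totals taken without them, the log2 fold change was 0.08 for cxcr3.2, −0.77 for cxcr3.3 and −2.73 for CXCR3, close to the values above. Ratios between receptors hold no heat shock reads. Both points concern scaling only. A link between the heat shock difference and the receptor levels was not tested, and it cannot be told apart from genotype in this design.

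Ligand genes were scarce in the same sorted pools. Of 8 genes named cxcl11 with a number or cxcl20, 3 had no read in any library, 1 was too low to test, and the 4 tested summed with it to 13.3, 14.4 and 23.2 raw CPM in wild type and 7.64, 3.98 and 6.14 raw CPM in mutant replicates 1 to 3. None of the 4 passed edgeR's test, and DESeq2 gave none of them an adjusted p, so it made no call either way. By edgeR 2 had an unadjusted p under 0.05, against 14.2% of all tested genes. A negative sign was given to 3 and a positive sign to 1, where 47.9% of all tested genes were positive. The median log2 fold change was −1.76, against −0.03 over all tested genes. The ligand gene cxcl11.6 measured 3.67, 7.03 and 8.82 raw CPM in wild type and 1.22, 0.442 and 1.98 raw CPM in mutant replicates 1 to 3 (log2 fold change −2.68, SE 0.65, edgeR adjusted p = 0.108). A further ligand gene, cxcl11.7, measured 3.19 to 4.33 raw CPM in wild type and 0.589 to 1.98 raw CPM in mutant libraries (log2 fold change −1.91, SE 0.65, edgeR adjusted p = 0.233). Both separated the genotypes on raw CPM, as did 5.45% of all tested genes with lower mutant values. How reads of similar cxcl11 copies were shared out is not stated. The ranges of cxcl11.1 (log2 fold change −1.61, edgeR adjusted p = 0.361) and cxcl20 (0.14, edgeR adjusted p = 0.973) overlapped between the genotypes.

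Downstream of the receptors, 1 of 33 tested genes of Gi proteins and their effectors was called by edgeR, against 1.19% of all tested genes, and 5 had an unadjusted p under 0.05, against 14.2%. DESeq2 called 3 of the 27 to which it gave an adjusted p (2 higher and 1 lower), against 9.23% of all genes so judged. GNAI2 (ENSDARG00000018174), which encodes an inhibitory G protein alpha subunit through which chemokine receptors signal, measured 237, 201 and 218 raw CPM in wild type and 449, 424 and 392 raw CPM in mutant replicates 1 to 3. All mutant libraries were above all wild type libraries, as were 19.6% of tested genes on this scale, and GNAI2 rose 1.6-fold (log2 fold change 0.68, SE 0.12, edgeR adjusted p = 0.0369). The call was lost without any 1 library (adjusted p = 0.0776 to 0.151) and with the replicate number as a block (0.0934), with log2 fold changes of 0.65 to 0.95 over all 13 alternatives. The second GNAI2 gene (ENSDARG00000017294) had a log2 fold change of 0.09 (SE 0.25, edgeR adjusted p = 0.919).

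The other 3 Gi pathway genes with the lowest p did not pass edgeR's test, though DESeq2 called pik3r6a and akt2. The regulatory subunit gene pik3r6a of the phosphoinositide 3-kinase that G protein beta-gamma dimers activate measured 35, 31.6 and 23.2 raw CPM in wild type and 6.54, 14.3 and 5 raw CPM in mutant replicates 1 to 3 (log2 fold change −2.08, SE 0.41, edgeR adjusted p = 0.0562). It separated the genotypes on raw CPM, as did 5.45% of all tested genes with lower mutant values. The gene was called under 4 of the 13 alternatives: DESeq2 (adjusted p = 6.76e-05), a minimum count of 50 (0.0165), no count filter (0.0412) and without mutant replicate 2 (0.0363). Over all 13 its adjusted p ran up to 0.208. The kinase gene akt2 had a log2 fold change of 0.73 (SE 0.22, edgeR adjusted p = 0.178, DESeq2 adjusted p = 0.0301), and the beta subunit gene gnb1b one of 0.39 (SE 0.14, edgeR adjusted p = 0.256). Over the list, 26 genes had a positive and 7 a negative sign, against 47.9% positive over all tested genes. Their median fold change on the log2 scale was 0.17, and it ran from 0.14 to 0.42 over the 13 alternatives. It was 0.14 with a minimum count of 50 and 0.42 with library totals alone, where that of all genes was 0.24. Without wild type replicate 3 it was 0.26. Without mutant replicate 1 it was 0.15, with 22 positive and 12 negative signs. The catalytic subunit gene PIK3CG, the partner of pik3r6a, had a log2 fold change of 0.08 (SE 0.22, edgeR adjusted p = 0.922).

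Genes that desensitise and recycle chemokine receptors (arrestins, receptor kinases, RGS proteins, clathrin and Rab GTPases) gave no call by edgeR among 29 tested, and none by DESeq2 among the 25 to which it gave an adjusted p. At an unadjusted p under 0.05 there were 4, a share close to the 14.2% over all tested genes. The median log2 fold change was 0.23, but 0.06 without mutant replicate 1 and 0.49 with library totals alone. The 4 with the lowest p were the early endosome GTPase gene RAB5A (ENSDARG00000007257, log2 fold change 0.59), the clathrin heavy chain genes cltca (0.54) and CLTC (0.69), and RGS5 (−1.04), whose product speeds the switching off of G proteins. Their edgeR adjusted p ranged from 0.226 to 0.304. The more abundantly counted ARRB2 gene (ENSDARG00000011545), a beta-arrestin, had a log2 fold change of 0.34 (SE 0.17, edgeR adjusted p = 0.426).

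Among 15 other chemoattractant receptor genes tested, none was called by edgeR and 1 had an unadjusted p under 0.05, against 14.2% of all tested genes. DESeq2 called 1 of the 11 to which it gave an adjusted p as higher, against 4.59% of all genes so judged. In each case it was CMKLR1, a chemerin receptor gene, at 254 to 287 raw CPM in wild type and 467 to 575 raw CPM in mutant libraries (log2 fold change 0.64, SE 0.15, edgeR adjusted p = 0.0938, DESeq2 adjusted p = 0.00201). With library totals alone edgeR called it as well (adjusted p = 0.0176). The receptor genes CXCR4 (ENSDARG00000041959), ccr12b.2 and ACKR3 (ENSDARG00000058179) had log2 fold changes of 0.24, 0.38 and −0.68 with edgeR adjusted p of 0.367, 0.37 and 0.389. The list's median was −0.20 and its sign turned with library totals alone (0.04), with a minimum count of 50 (0.04) and without wild type replicate 3 (0.03).

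**Figure D4:**
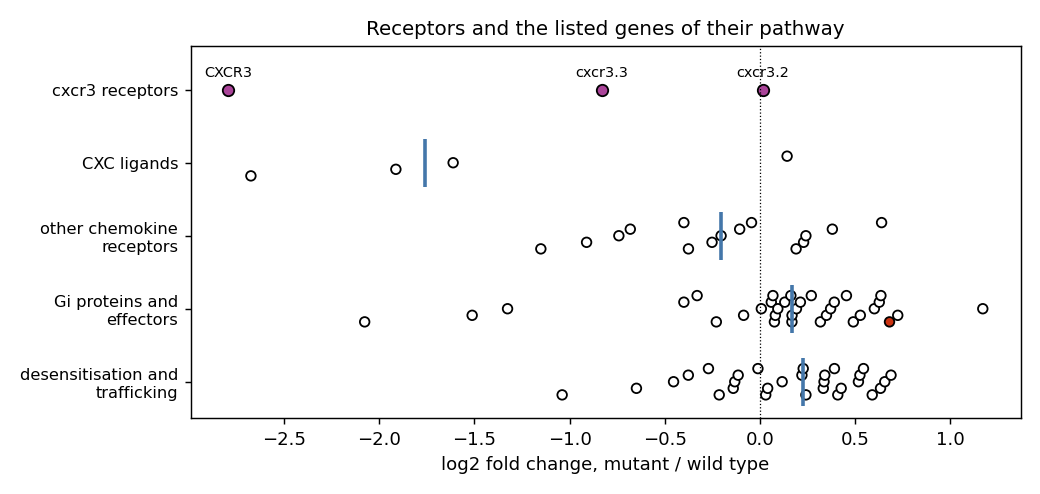
Log2 fold change, mutant over wild type (edgeR, TMM), of the 3 receptors and of each tested gene in 4 lists. Points are genes, spread vertically for legibility, blue lines are list medians, and the filled red point is the one called gene, GNAI2, at 0.68. CXCR3 and cxcl11.6 lie furthest to the left.

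Genes whose levels ran most like each receptor over the 6 libraries were ranked by Pearson's r of log2 CPM among 7203 named genes of sufficient level (7204 for CXCR3). The 4 closest to cxcr3.2 were MT-ND6 (r = 0.989), FABP2 (0.979), SEPTIN7 (0.972) and IDH3B (0.963). The closest to cxcr3.3 were RABAC1 (0.982), DLC1 (0.979), ADA (0.978) and bnip4 (0.971). The closest to CXCR3 were ST13 (0.994), MTMR11 (0.988), GFM1 (0.987) and MPEG1 (ENSDARG00000043093, 0.987), none of which was called by edgeR. This MPEG1 gene measured 114, 111 and 95.2 raw CPM in wild type and 30.6, 59.6 and 71.3 raw CPM in mutant replicates 1 to 3 (log2 fold change −1.26, SE 0.29, edgeR adjusted p = 0.0904). It had the lowest edgeR p of the 4 macrophage markers with a negative sign. DESeq2, and edgeR with a minimum count of 50, each called 1 macrophage marker lower, as given above. Over these 6 libraries, r was over 0.9 for 31 genes with cxcr3.2 (0.43%), 67 with cxcr3.3 (0.93%) and 111 with CXCR3 (1.54%). With the genotype means removed, none of the genes just named for cxcr3.3 or CXCR3 was among the 4 closest, which were then MTMR12, mybbp1a, cd74b and NIF3L1 for cxcr3.3 and POLR2C, RPS23, PRKAR1A and CHMP7 for CXCR3. For cxcr3.2 they were NDE1, ARPC3, MT-ND6 and ABRACL.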

How the data were processed

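The deposited values are raw counts of reads for each Ensembl gene in 6 libraries, not normalized by the authors. Per the labels' protocols, sorted cells gave RNA that was made into cDNA and amplified with a low-input kit, and single reads were aligned to GRCz10. Bowtie and TopHat appear in the submitters' processing notes. The counting tool, annotation release, and treatment of strand and of reads with several matches were not stated in the labels or files used here. Amplified reads without molecular identifiers are not independent molecules, so Poisson and Clopper-Pearson intervals cover counting error only.

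Symbols came from a table naming 26121 of 31962 IDs. Listed genes were matched by symbol, regardless of case or paralog suffix, and symbols on more than 3 IDs (mfap4) were dropped. The neutrophil gene mpx had no match. Genes were kept by filterByExpr (minimum count 10, total 15), scaled by TMM and tested with edgeR 4.0.16 in R 4.3.3 (glmQLFit, glmQLFTest, genotype as the only term, two-sided, Benjamini-Hochberg over 16499 genes, threshold 0.05). Recovery of known fold changes was checked on simulated counts. Those had a common dispersion for all genes and no heat shock difference, unlike these data. DESeq2 1.42.0 was an alternative. Permutation tests used SciPy 1.17.1, and ratios a pseudocount of 0.5. The common biological coefficient of variation was 0.441, so for well-counted genes the differences between libraries set the precision. At counts as low as the 2 CXCR3 reads of mutant replicate 1, counting error weighs heavily as well. Libraries of a genotype differed by more than Poisson counting of independent reads would give (mean chi-square of 18.5 or above for each pair). Labels state separate groups of larvae per library but no date or batch. Named genes were the receptors, in each pathway list the called members and those among the 4 lowest p, the 4 genes most like each receptor, and markers; GNAI2 (ENSDARG00000017294), PIK3CG and ARRB2 were added after their values were seen. Members and lists were chosen with earlier results of these data known. Sequences and lengths were not used here.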

Additional observations from a re-analysis of the deposited data

How the results depend on the processing

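Signs of cxcr3.3 and CXCR3, of the 3 receptor ratios and of the shares held under all alternatives run. DESeq2 moved cxcr3.3 (log2 fold change −0.82, adjusted p = 0.0448) and CXCR3 (−2.79, adjusted p = 0.00308) past the threshold; no edgeR setting did, the nearest being a minimum count of 50 for CXCR3 (adjusted p = 0.0567). For cxcr3.2 the sign turned with a minimum count of 50 (−0.014), without wild type replicate 2 (−0.05) and without mutant replicate 2 (−0.10), never near the threshold. That of cxcl20 turned without wild type replicate 1 (−0.35) or mutant replicate 1 (−0.59), within −0.59 to 0.71 over the libraries left out. Leaving out each library in turn gave log2 fold changes of −0.10 to 0.11 for cxcr3.2, −1.03 to −0.59 for cxcr3.3 and −3.74 to −2.24 for CXCR3.

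Against 51 higher and 146 lower genes, DESeq2 called 463 and 468, raw library totals 217 higher, totals without heat shock genes 78 higher, and a minimum count of 50 gave 140 higher and 293 lower. Leaving out each library gave 3 to 11 higher and 43 to 98 lower, both lowest without wild type replicate 3. The replicate number as a block gave 13 higher and 84 lower, and log2 fold changes of 0.01, −0.80 and −3.15 for cxcr3.2, cxcr3.3 and CXCR3 (edgeR adjusted p = 0.991, 0.189 and 0.217); paired ratios gave an exact sign-flip p of 0.25, the smallest possible. Same-numbered libraries did not deviate together (correlations −0.03, 0.002 and −0.03), so the numbers are not taken as pairs. Shares per coding length were not run. The CXCR3 level in mutant replicate 1 rests on 2 reads out of 9026853 counts and is therefore imprecise, though this library was deeper than every wild type library.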

Other observations

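In the gene order of RefSeq's GRCz12tu assembly, which is not the build of the count files, cxcr3.2, cxcr3.3 and a gene named cxcr3.1 stand together on chromosome 16, with cnfn and tlr21 near them on one side and the coreceptor gene cd4-1 on the other. No table used here pairs cxcr3.1 with an Ensembl ID, so it was not tied to CXCR3, whose place is not given here. Of the 20 protein-coding genes nearest to them, 10 on each side, 15 had an ID in the files and 11 were tested. None was called by edgeR, and 4 had an unadjusted p under 0.05, against 14.2% of all tested genes. DESeq2 gave an adjusted p to 3 and called 1 higher and 1 lower, against 4.59% and 4.64% of the genes it judged. By edgeR 6 of the 11 had a negative sign. These neighbours were looked up with the receptor values known.

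The adhesion molecule gene ceacam1 measured 2.96, 2.15 and 0.962 raw CPM in wild type and 4.99, 28.9 and 28.9 raw CPM in mutant replicates 1 to 3. All mutant libraries were above all wild type libraries, as were 19.6% of tested genes on this scale (log2 fold change 3.08, SE 0.68, edgeR adjusted p = 0.083, DESeq2 adjusted p = 0.00017). The gene pafah1b3, for a subunit of an enzyme that breaks down platelet-activating factor, measured 40.5, 29.2 and 61.4 raw CPM in wild type and 24.3, 19.6 and 15.1 raw CPM in mutant replicates 1 to 3. Here all mutant libraries were below, as were 5.45% of tested genes on this scale (log2 fold change −1.41, SE 0.30, edgeR adjusted p = 0.0714, DESeq2 adjusted p = 0.000659). The ubiquitin protease gene usp5 had a log2 fold change of −0.59 (SE 0.23, edgeR adjusted p = 0.301), and tlr21, a Toll-like receptor gene, measured 4.05 to 7.85 raw CPM in wild type and 0, 0.294 and 4.58 raw CPM in mutant replicates 1 to 3 (log2 fold change −2.01, SE 1.17, edgeR adjusted p = 0.516). The genes cd4-1 and cd4-2.2 stayed below 1 raw CPM in all libraries. Gene order and level were not tested against each other.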
